A study of Homo sapiens with 4 samples.

Results

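The genes described are 40 DNA replication and S phase genes, chosen by name from a list of origin licensing, helicase, polymerase, clamp, nucleotide supply, chromatin assembly and S phase entry genes. All 40 were found, each on a single row, among 34826 genes of the deposited table. RNA came from HCT116 cells, a human colorectal cancer line, whose Ki-67 protein carries a degron tag (the labels name the line HCT116-Ki-67-mAC-AID), and all libraries are of this line. The 2 IAA samples were kept for 24 h in 0.5 mM IAA (indole acetic acid), an auxin that triggers destruction of a degron-tagged protein, and the 2 control samples were untreated. Each sample was collected from 3 dishes grown for 2 days, and the labels do not say whether the line is a single clone or whether replicate numbers mark a shared day. The comparison asks how transcript levels differ when Ki-67 is degraded. Ki-67 protein was not measured here and no untagged cells with IAA were among the samples, so the loss of Ki-67 and IAA itself cannot be told apart.

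Human cells copy their genome once per cell cycle by separating the loading of the helicase from its firing. In G1 the origin recognition complex, CDC6 and CDT1 load the MCM2 to MCM7 ring onto DNA. In S phase CDC45 and the GINS complex join the ring to make the active helicase, and polymerases copy the strands behind a sliding clamp while new histones are deposited. Cyclin E and the phosphatase CDC25A push cells into S phase. Many of these genes are transcribed in late G1 under E2F factors, and for that reason their mRNAs are widely used as markers of proliferating cells, as is Ki-67 itself. In bulk RNA, fewer cells in S phase and less of an mRNA per cell cannot be told apart.

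The promoters show what many of the genes have in common in sequence. RefSeq start sites (GRCh38.p14) were at hand for 35 of the 40 genes, and the 250 bases before each start were searched on both strands for TTTCCCGC, TTTCGCGC, TTTGCCGC and TTTGGCGC (the E2F consensus, in which a word and its neighbour on the other strand may overlap) and for CCAAT, the NF-Y word. An E2F word was present in 13 of 35 genes (37.1%), against 5.68% of 9830 protein-coding genes tested and 3.4% of all 27305 genes in the promoter table, counting any start of a gene. A separate list of other replication genes had the word in 10 of 39 (25.6%). CCAAT was present in 22 of 35 (62.9%), against 56.4% of the other replication genes, 41.6% of the protein-coding genes tested and 37.0% of all genes in the table. The GC box GGGCGG was present in 74.3% of the 35 and 76.4% of the protein-coding genes tested, a share close to that of other genes. A match is a description of letters and not evidence of binding. The promoters below are examples, 4 with the E2F word and 1 without, picked after the values were seen from genes whose IAA and control libraries did not overlap on the TPM scale. Capitals mark the E2F and CCAAT words on either strand. They lie at chr2:135876444-135876693 (MCM6, minus strand), chr16:88803539-88803788 (CDT1, plus), chr12:132687343-132687592 (POLE, minus), chr20:5126623-5126872 (PCNA, minus) and chr2:10122489-10122738 (RRM2, plus), and PCNA and RRM2 each had another start in the table.
MCM6: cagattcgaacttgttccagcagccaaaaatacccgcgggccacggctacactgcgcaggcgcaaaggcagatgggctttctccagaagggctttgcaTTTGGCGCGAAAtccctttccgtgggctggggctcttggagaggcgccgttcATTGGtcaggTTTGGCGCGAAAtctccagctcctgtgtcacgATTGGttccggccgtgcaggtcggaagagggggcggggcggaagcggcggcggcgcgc
CDT1: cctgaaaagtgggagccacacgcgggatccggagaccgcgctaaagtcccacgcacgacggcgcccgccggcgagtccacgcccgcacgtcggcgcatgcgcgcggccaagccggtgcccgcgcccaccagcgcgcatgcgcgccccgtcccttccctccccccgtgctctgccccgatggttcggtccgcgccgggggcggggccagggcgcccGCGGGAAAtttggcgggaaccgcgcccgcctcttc
POLE: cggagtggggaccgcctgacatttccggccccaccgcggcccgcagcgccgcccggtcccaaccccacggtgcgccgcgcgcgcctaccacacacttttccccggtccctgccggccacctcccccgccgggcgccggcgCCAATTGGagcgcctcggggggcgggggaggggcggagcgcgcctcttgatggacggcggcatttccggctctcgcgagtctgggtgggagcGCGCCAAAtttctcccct
PCNA: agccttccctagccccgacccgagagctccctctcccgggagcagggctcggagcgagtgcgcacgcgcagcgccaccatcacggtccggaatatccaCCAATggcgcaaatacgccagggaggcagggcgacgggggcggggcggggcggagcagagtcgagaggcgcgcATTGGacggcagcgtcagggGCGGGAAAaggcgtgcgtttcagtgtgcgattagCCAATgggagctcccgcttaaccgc
RRM2: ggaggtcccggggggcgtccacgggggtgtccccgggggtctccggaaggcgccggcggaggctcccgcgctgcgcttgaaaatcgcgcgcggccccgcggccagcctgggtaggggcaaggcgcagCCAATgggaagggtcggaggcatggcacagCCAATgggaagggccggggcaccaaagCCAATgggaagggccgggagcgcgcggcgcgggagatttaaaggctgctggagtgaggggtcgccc
MCM6 held 4 E2F matches in 2 stretches where words on opposite strands overlap, and CDT1, POLE and PCNA held 1 each. RRM2 held none in this window but 3 copies of CCAAT. Of the 12 genes below both controls on the TPM scale, 10 had a promoter in the table (MCM4 and DSCC1 had none) and 5 of these held the E2F word. Of the 3 above, 2 had a promoter and 1 held it, PCNA, at one of its starts. Of the 25 with overlapping libraries, 23 had a promoter and 7 held it. Under the other scalings of the libraries given below, MCM6 left the genes below and PCNA the genes above. A link between the word and the values was not tested.

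The libraries held 38733981 and 40920854 reads in IAA and 38953166 and 49448043 reads in control, as recovered from TPM (a transcript level: reads divided by gene length and scaled to the same sum in each library). The 40 genes together took 0.289% to 0.304% of the reads. Single genes rested on 145 to 12960 reads in a library, and counting error alone was 8.30% of the value at the lowest. Epithelial markers (EPCAM, CDH1, KRT8, KRT18, KRT19 and VIL1) summed to 3727 and 4110 TPM in IAA and 3859 and 3864 TPM in control, although VIL1 alone stayed under 1 TPM in every library. Blood markers summed to at most 0.493 TPM and endothelial markers to at most 0.703 TPM in any library, and fibroblast markers to 13.9 to 15.3 TPM, nearly all of it COL1A1. Squamous epithelium markers summed to 29.8 TPM in IAA replicate 1, against 4.52 TPM in IAA replicate 2 and 5.08 and 5.13 TPM in control. MKI67 mRNA had 174 and 149 TPM in IAA and 198 and 151 TPM in control, and does not check removal of the protein.

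All 40 genes were expressed. On the TPM scale their mean levels over the 4 libraries ran from 2.38 TPM for POLA2 to 436 TPM for TK1, with a median of 40.75 TPM, and the median gene of the group stood at the 79.5th percentile of all genes tested. The plot of levels by library shows that the differences between genes were far larger than those between libraries.

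**Figure D1:**
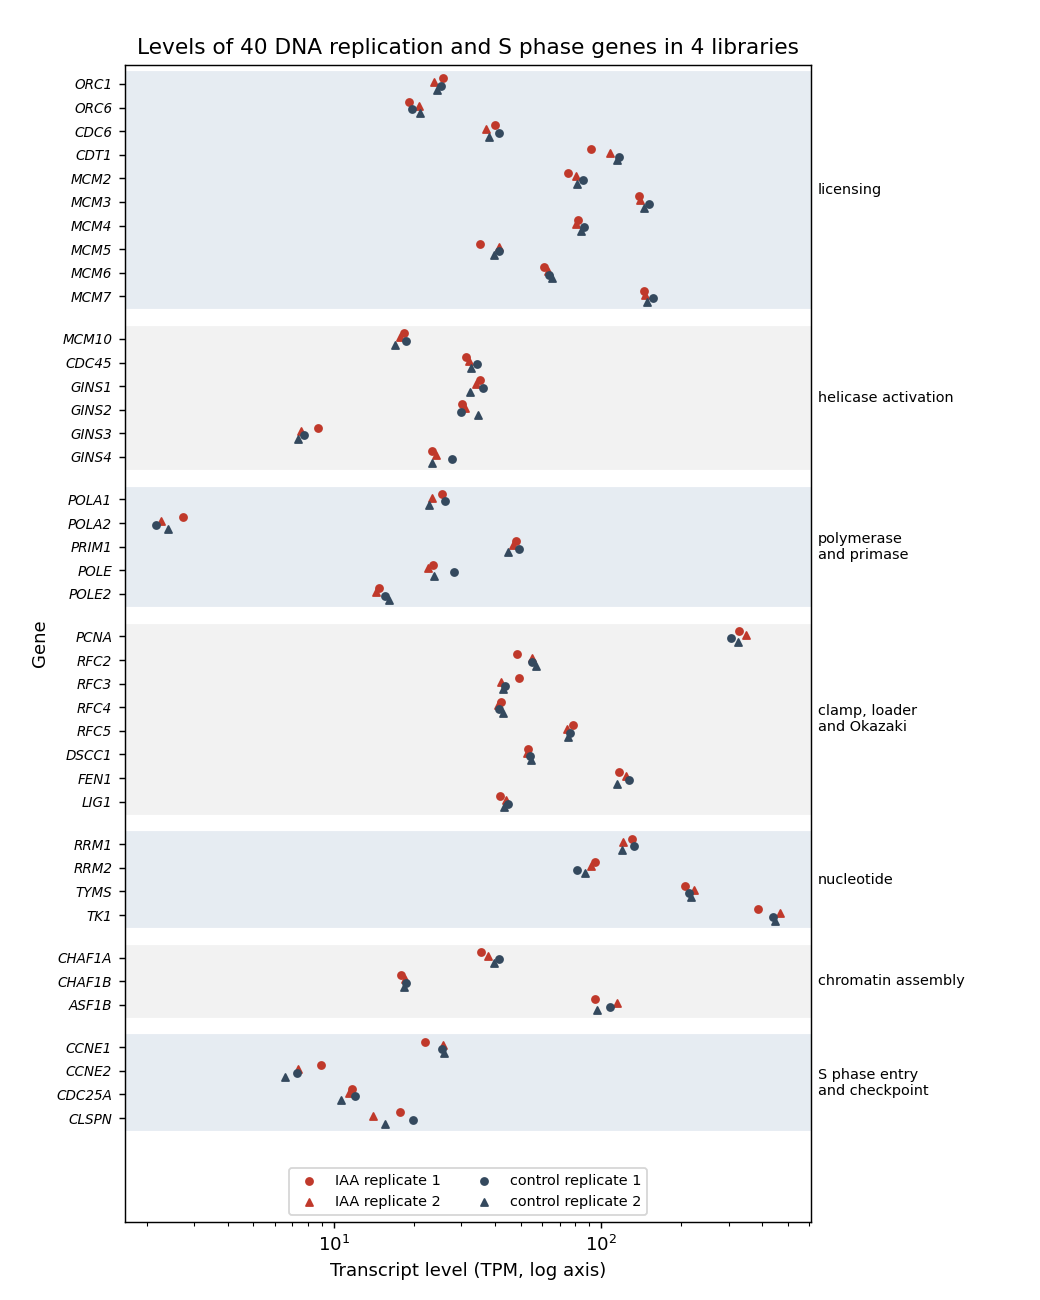
Transcript level in TPM on a log axis for each of the 40 genes, arranged by role, with IAA libraries in red above control libraries in dark blue within each row and circles and triangles for replicates 1 and 2. The 4 points of a gene lie close together, while genes span 2.38 TPM (POLA2) to 436 TPM (TK1) on average.

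None of the 40 genes passed the test of IAA against control. Limma on log2(TPM + 1), with p-values adjusted by the Benjamini-Hochberg method over 17896 genes, called 0 members higher and 0 lower at an adjusted p under 0.05, and it called 0% of all genes tested in either direction. The smallest adjusted p of a member was 0.999, and 0 members had an unadjusted p under 0.05, against 1.54% of all genes tested with higher and 2.61% with lower values. Limma voom on recovered reads also called 0 members, with a smallest adjusted p of 0.997, and called 0.00559% of all genes higher and 0% lower. At an unadjusted p under 0.05 voom had 0 members, against 1.82% of all genes higher and 2.11% lower. The 95% intervals of the 40 log2 fold changes, not adjusted for the number of genes, all lay between -0.54 and 0.55. The design had 2 libraries a group, and an exact permutation test cannot give a two-sided p below 0.33 there.

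More of the 40 values were negative than positive, by a margin that shrank under other scalings, as did that of all genes. The median log2 fold change was -0.031, against -0.017 over all genes tested, and the replicate SD of the members' median deviation was 0.027. On the TPM scale 27 of 40 genes were negative (67.5%, against 55.5% of all genes). With TMM factors 24 were negative and the median was -0.025, with median centring 22 and -0.015, and by voom 22 and -0.014. All genes tested then had 53.8%, 50.6% and 50.3% negative values, and medians of -0.012, -0.0018 and -0.0010. Both IAA libraries lay below both controls for 12 genes (30.0% of members, against 17.7% of all genes tested), and both lay above for 3 genes (7.5%, against 11.8%). The 12 were CDT1, MCM2, MCM3, MCM4, MCM6, MCM7, CDC45, POLE, POLE2, RFC2, DSCC1 and CHAF1A, and the 3 were PCNA, RRM2 and CCNE2. The first count was 8 to 9 under other scalings of the libraries (TMM factors, median centring and voom), where the share of all genes was 17.5%, 16.4% and 16.4%. MCM2, MCM6 and RFC2 left it in each of them and DSCC1 in the last 2, while PCNA left the second count in each. RFC5 entered the second count in each, GINS3 with median centring and voom, and MCM10 by voom alone. That count was then 3, 4 and 5, where the share of all genes was 13.5%, 16.3% and 16.2%. For 9 of 40 genes the difference between the groups exceeded both differences between replicates, against 18.1% of all genes tested.

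**Figure D2:**
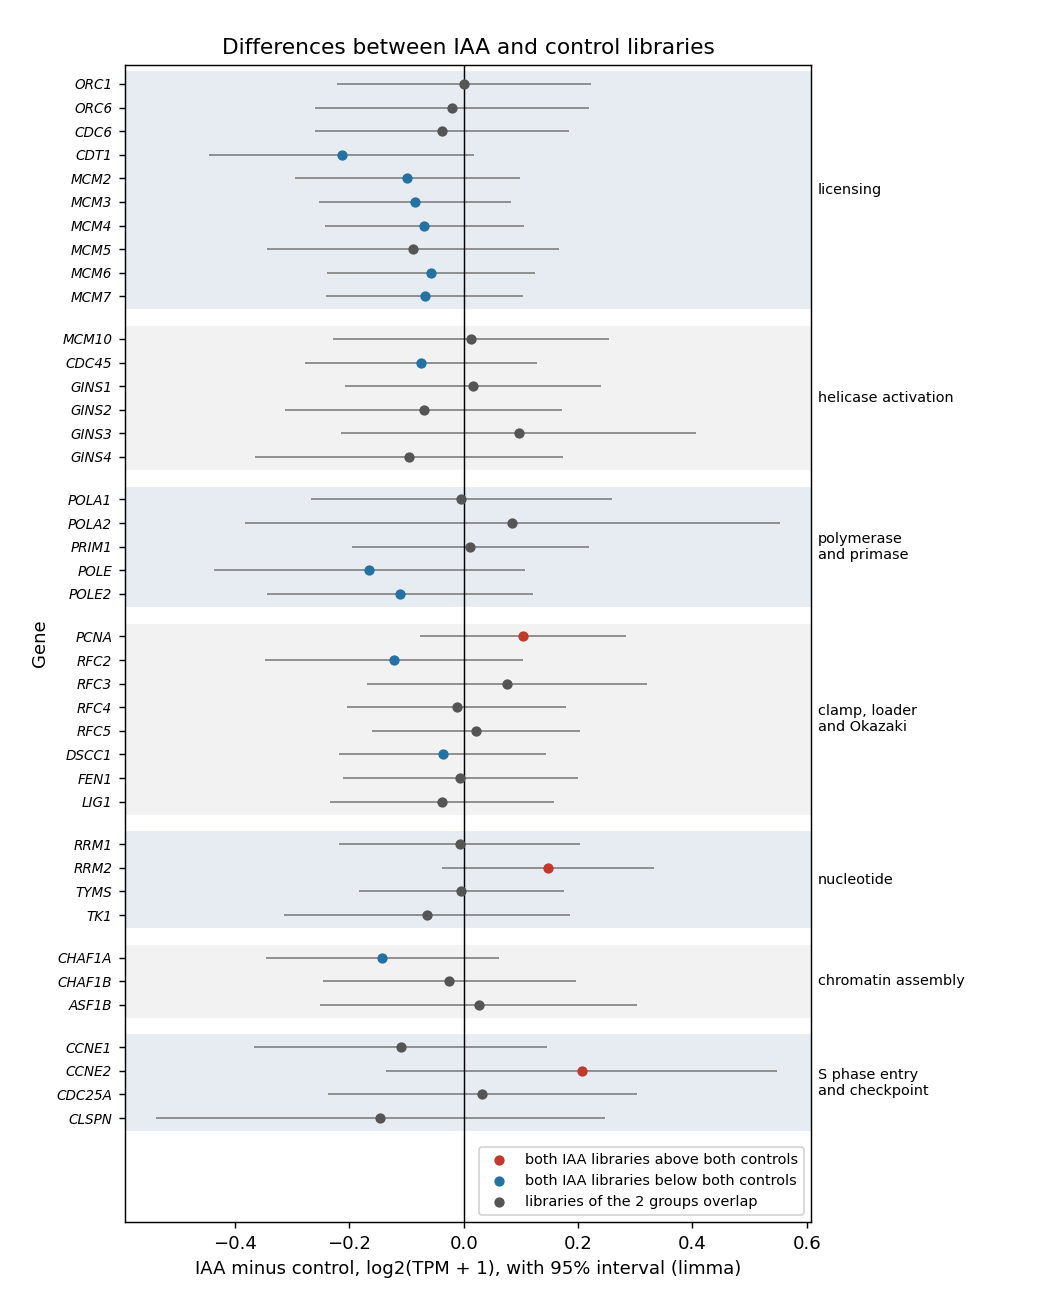
Log2 fold change of IAA over control on the log2(TPM + 1) scale (points) with 95% limma intervals (lines) for the 40 genes by role, coloured by whether the libraries of the groups overlap. Every interval includes 0. On the TPM scale 12 genes lie below both controls (30.0% of members, against 17.7% of all genes tested). They include 5 of the 6 MCM2 to MCM7 genes, of which MCM2 and MCM6 overlap under the other scalings.

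**Figure D3:**
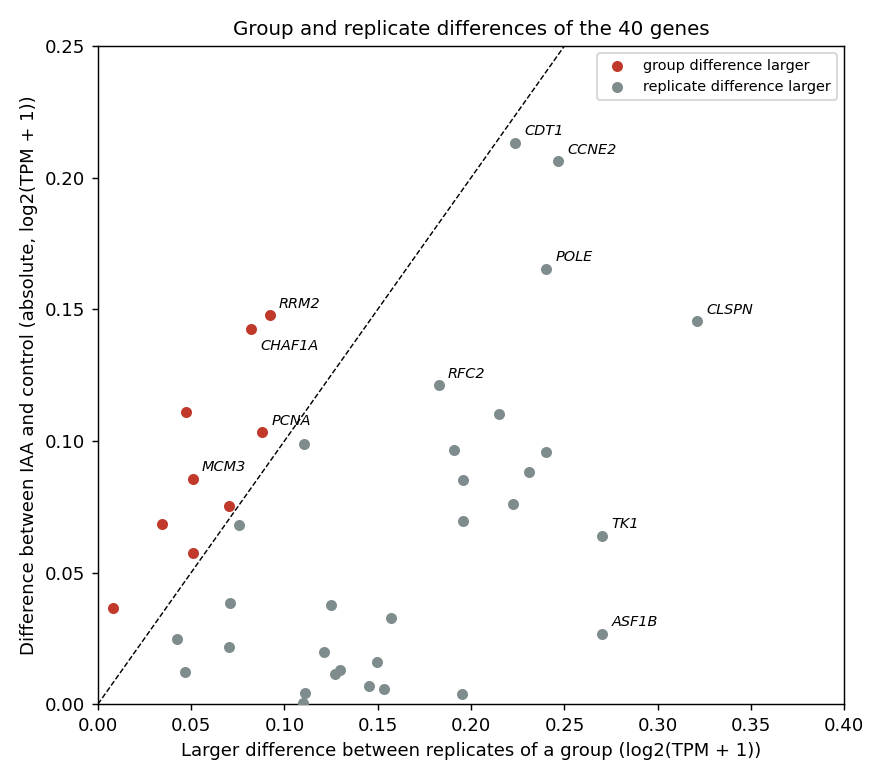
For each of the 40 genes, the absolute difference between IAA and control against the larger of its replicate differences, both on the log2(TPM + 1) scale; the dashed line marks equality. Only 9 points lie above the line, RRM2 and CHAF1A highest among them.

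Origin licensing genes held 6 of the 12 genes below both controls on the TPM scale (60% of the role, against 17.7% of all genes tested). MCM2 and MCM6 left this count under each of the other scalings. The median log2 fold change of the 10 licensing genes was -0.068, and 0 passed. CDT1, the loading factor for the MCM ring whose activity is limited to G1 (ENSG00000167513.8, GRCh38 chromosome 16, 88803213 to 88809258, plus strand), had 92.0 and 108 TPM in IAA replicates 1 and 2, against 116 and 115 TPM in control replicates 1 and 2. The controls were nearly equal, and both IAA libraries lay below them, replicate 1 far more so. The means were 99.8 ± 11.03 TPM in IAA and 116 ± 1.17 TPM in control (SD, n = 2). The log2 fold change was -0.21 ± 0.09 (SE), its 95% interval reaching -0.44 below and 0.018 above (limma adjusted p = 0.999). Without IAA replicate 2 the value was -0.32 and passed (limma adjusted p = 0.0412, with 0.0412 to 1.0 across all alternatives), in a fit that called 2.37% of all genes lower and 2.98% higher and assumes that the lone IAA library varies like the controls. Without IAA replicate 1, the library with the higher squamous marker sum, it was -0.10, and 0 members passed in a fit that called 0.402% of all genes higher and 1.23% lower. The part of that library's other differences in the CDT1 value was not tested. GMNN, the inhibitor of CDT1 protein, was looked up after its values were seen and had 64.5 and 59.3 TPM in IAA, against 56.2 and 58.8 TPM in control. Both of its IAA libraries lay above both controls (limma adjusted p = 0.999).

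The MCM2 to MCM7 genes, which encode the subunits of the replicative helicase ring, had negative log2 fold changes in all 6 cases, from -0.099 to -0.057, and 0 of 6 passed. The MCM3 gene (minus strand of chromosome 6, 52264009 to 52284881) had 139 and 140 TPM in IAA and 151 and 145 TPM in control. The MCM7 gene (minus strand of chromosome 7, 100092728 to 100101940) had 145 and 146 TPM in IAA and 157 and 149 TPM in control. MCM4 had 82.1 and 80.7 TPM in IAA and 86.4 and 84.3 TPM in control. In these 3 genes both IAA libraries lay just under both controls. The group difference exceeded the replicate differences in MCM3 and MCM4, and in MCM7 the controls differed by more than the groups did. MCM2 had 74.9 and 80.9 TPM in IAA and 85.7 and 81.3 TPM in control, so that IAA replicate 2 was all but equal to control replicate 2. MCM6 had 61.1 and 63.3 TPM in IAA and 64.1 and 65.3 TPM in control. The exception was MCM5, with 35.2 and 41.5 TPM in IAA and 41.7 and 39.7 TPM in control, where IAA replicate 2 lay between the controls and the log2 fold change was 0.027 without IAA replicate 1. Summed over the 6 genes the levels were 537 and 553 TPM in IAA and 585 and 565 TPM in control. Under the 3 other scalings all 6 values stayed negative and MCM3, MCM4 and MCM7 stayed below both controls. The MCM2 to MCM6 values are given in full because they form a single complex, a choice made after the values were seen.

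The other licensing genes showed smaller differences. ORC1, the cell-cycle-regulated subunit of the origin recognition complex, had 25.7 and 23.7 TPM in IAA and 25.1 and 24.3 TPM in control, with a log2 fold change of 0.00038 and a 95% interval from -0.22 to 0.22. It was the only licensing gene without a negative value, and its IAA libraries lay on either side of the controls. ORC6, another subunit of that complex, had 20.02 ± 1.247 TPM in IAA and 20.3 ± 0.96 TPM in control, and CDC6, the ATPase that helps to load the ring, 38.6 ± 2.08 TPM in IAA and 39.7 ± 2.49 TPM in control (SD, n = 2). In both genes the replicates of a group differed more than the groups did.

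**Figure D4:**
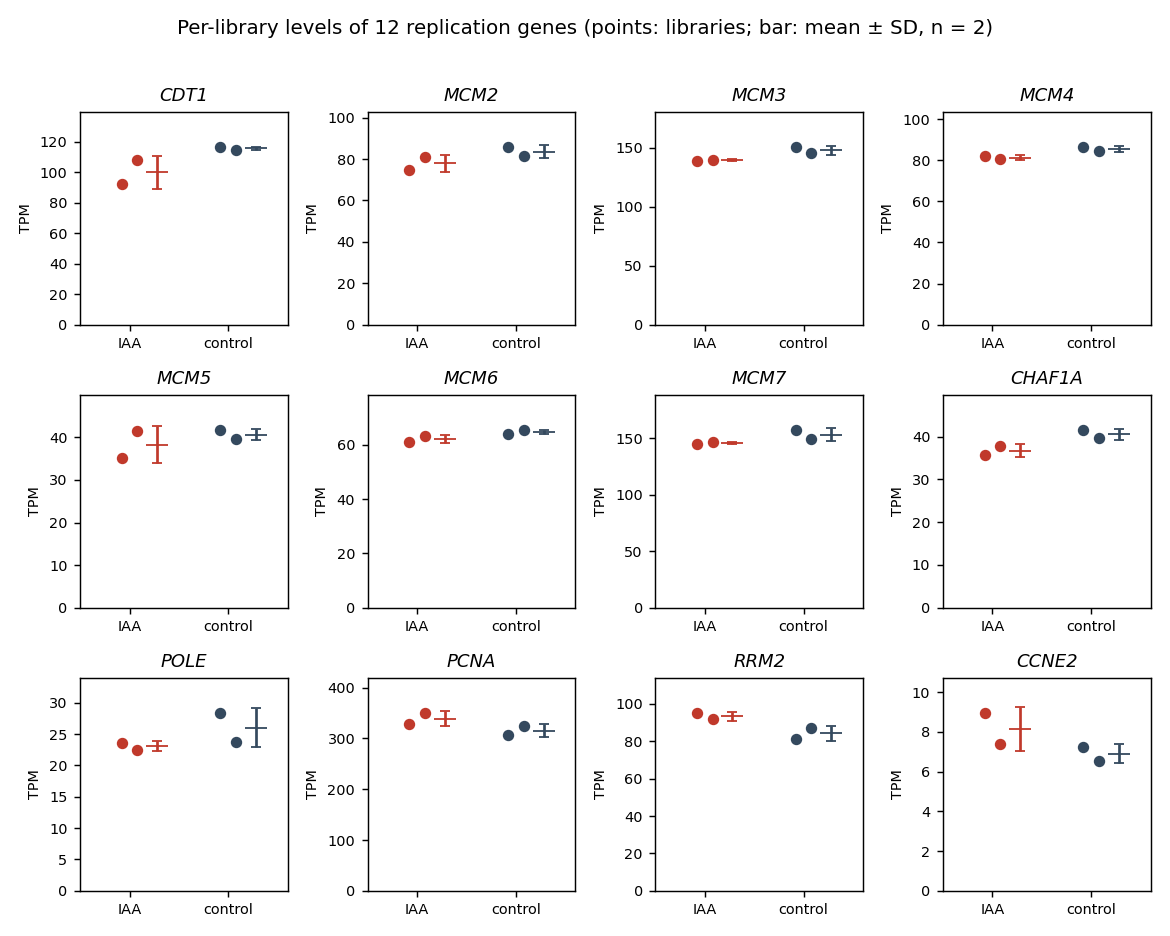
TPM of 12 genes in each library, with IAA (red) left of control (dark blue); points are libraries, bars the mean ± SD of 2 libraries, and each axis starts at 0. CDT1, MCM2, MCM3, MCM4, MCM6, MCM7, CHAF1A and POLE have both IAA points below both control points, PCNA, RRM2 and CCNE2 have them above, and MCM5 overlaps.

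Helicase activation genes held 1 of the 12 (16.7% of the role, against 17.7% of all genes tested). CDC45, the factor that joins the ring to form the active helicase (plus strand of chromosome 22, 19479459 to 19520612), had 31.3 and 32.0 TPM in IAA and 34.2 and 32.6 TPM in control. Both IAA libraries lay below both controls, and the log2 fold change was -0.075 ± 0.083 (SE) (limma adjusted p = 0.999). GINS1 had 35.3 and 33.96 TPM in IAA, against 36.1 and 32.4 TPM in control, and overlapped fully. GINS3 had 8.72 and 7.52 TPM in IAA and 7.72 and 7.31 TPM in control, with IAA replicate 1 alone above the rest. GINS2, GINS4 and MCM10, which recruits polymerase alpha to the fork, had log2 fold changes of -0.069, -0.096 and 0.013, and their libraries overlapped on the TPM scale. Under other scalings GINS3 lay above both controls with median centring and voom, and MCM10 by voom alone. For GINS4 the controls were 27.7 and 23.3 TPM and spanned both IAA values of 23.3 and 24.1 TPM. The 4 GINS genes, subunits of a single complex, thus had values of either sign.

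Polymerase and primase genes held 2 of the 12 genes below both controls (40% of the role, against 17.7% of all genes tested). The libraries of POLA1, POLA2 and PRIM1 overlapped, and the 2 were POLE and POLE2, both of polymerase epsilon. POLE3 and POLE4 of the same polymerase were in the separate list and did not lie below the controls. Their log2 fold changes were 0.064 and -0.011, and their libraries overlapped. POLE, the catalytic subunit of the leading strand polymerase (minus strand of chromosome 12, 132623753 to 132687365), had 23.6 and 22.5 TPM in IAA and 28.3 and 23.8 TPM in control. The size of the difference rested on control replicate 1, since the other control was nearly equal to IAA replicate 1. Both IAA libraries of POLE stayed below both controls under the 3 other scalings. The log2 fold change was -0.17 ± 0.11 (SE) (limma adjusted p = 0.999), and -0.045 without control replicate 1. POLE2, its second subunit, had 14.8 and 14.3 TPM in IAA and 15.5 and 16.1 TPM in control, a log2 fold change of -0.11 ± 0.095 (SE). Here the replicates of each group were closer to each other than the groups were. PRIM1, the catalytic primase subunit that makes the RNA primers, had 48.1 and 46.8 TPM in IAA and 49.2 and 45.0 TPM in control. POLA1, the catalytic subunit of polymerase alpha, had 24.3 ± 1.496 TPM in IAA and 24.4 ± 2.42 TPM in control (SD, n = 2). Its log2 fold change of -0.0041 turned its sign under other scalings.

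POLA2, the second subunit of polymerase alpha, was the lowest of the 40 genes, with 2.72 and 2.25 TPM in IAA and 2.16 and 2.40 TPM in control. It rested on 145 to 213 reads in a library. In GENCODE 29 AP000944.2, a protein-coding gene on the same strand, shares 35.1% of the exon bases of POLA2 and 53.7% of its principal transcript, and itself had 0.554 and 0.605 TPM in IAA and 0.922 and 0.651 TPM in control. Reads in shared exons can be split or left out by a counter, so that the level of POLA2 beside its partners is uncertain. The same holds to a lesser degree for PRIM1, with 16.2% of its exon bases shared on the same strand, and RRM2, with 20.2%. Genes on the other strand cover 46.6% of the exon bases of TYMS, most of that by ENOSF1, and 37.1% of CCNE2, nearly all by INTS8. They cover 23.6% each of MCM2 and GINS4, mostly by genes annotated as antisense, 10.9% of GINS3 and 10.6% of RFC5. INTS8 had 51.5 and 45.3 TPM in IAA and 49.7 and 47.0 TPM in control, above CCNE2 in every library. ENOSF1 had at most 19.4 TPM, below TYMS, and WSB2, which overlaps RFC5, at most 46.2 TPM, below RFC5. AC009118.2, which overlaps GINS3, had 5.91 to 8.46 TPM. The use of strand in counting is not given in the sources used here, and the part of such reads in these levels was not tested. Processed pseudogenes named after members (PCNAP3, RRM2P2, RRM2P3 and FEN1P1) had at most 0.297 TPM.

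Clamp, loader and Okazaki fragment genes had values of either sign. PCNA, the sliding clamp that holds polymerases on DNA (minus strand of chromosome 20, 5114953 to 5126626), was the highest gene of this role, with 329 and 349 TPM in IAA and 306 and 325 TPM in control. Both IAA libraries lay above both controls, by only a few TPM between IAA replicate 1 and control replicate 2. The means were 339 ± 14.6 TPM in IAA and 315 ± 13.3 TPM in control (SD, n = 2), and the log2 fold change was 0.10 ± 0.07 (SE) (limma adjusted p = 0.999). It ranged over 0.059 without IAA replicate 2, 0.061 without control replicate 1, 0.146 without control replicate 2 and 0.147 without IAA replicate 1, and the groups overlapped under the 3 other scalings. RFC2, a subunit of the clamp loader, had 48.5 and 55.1 TPM in IAA and 55.3 and 57.3 TPM in control. IAA replicate 2 was nearly level with control replicate 1, and the log2 fold change was -0.12 with all libraries and -0.030 without IAA replicate 1. The other loader subunits among the 40, RFC3, RFC4 and RFC5, had log2 fold changes of 0.076, -0.012 and 0.022, with libraries that overlapped on the TPM scale. Under the 3 other scalings both IAA libraries of RFC5 lay above both controls. DSCC1, part of the alternative loader used in sister chromatid cohesion, had 53.2 and 52.9 TPM in IAA and 54.3 and 54.6 TPM in control, the tightest replicates of the 40 genes, with a log2 fold change of -0.037. FEN1, the nuclease that trims Okazaki fragments, had 120.4 ± 4.61 TPM in IAA and 121 ± 9.16 TPM in control. LIG1, the ligase that seals them, had 42.8 ± 1.52 TPM in IAA and 43.99 ± 1.013 TPM in control (SD, n = 2), and in both genes the groups overlapped.

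Among nucleotide supply genes RRM2 stood on the high side. RRM2, the small subunit of ribonucleotide reductase that is made in S phase (plus strand of chromosome 2, 10120698 to 10131419), had 94.8 and 91.7 TPM in IAA and 81.4 and 86.8 TPM in control. Both IAA libraries lay above both controls, with a gap close to the difference between the controls. The means were 93.3 ± 2.21 TPM in IAA and 84.1 ± 3.84 TPM in control (SD, n = 2). The log2 fold change was 0.15 ± 0.08 (SE), its 95% interval reaching -0.038 below and 0.33 above (limma adjusted p = 0.999). It lay between 0.10 and 0.19 with any 1 library left out, and both IAA libraries stayed above both controls under the 3 other scalings. RRM1, the large subunit of the same enzyme, had 131 and 121 TPM in IAA and 133 and 120.1 TPM in control, so that the replicates differed and the groups did not separate. TK1, the salvage kinase for thymidine and the most abundant of the 40, had 387 and 468 TPM in IAA and 441 and 449 TPM in control. Its IAA libraries lay on either side of the controls, and the log2 fold change was -0.20 without IAA replicate 2 and 0.071 without IAA replicate 1. TYMS, which makes thymidylate, had 206 and 222 TPM in IAA and 213 and 216 TPM in control.

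Chromatin assembly and S phase entry genes completed the group. CHAF1A, the large subunit of the histone chaperone CAF-1 (plus strand of chromosome 19, 4402662 to 4445018), had 35.6 and 37.8 TPM in IAA and 41.5 and 39.7 TPM in control. The groups did not overlap under any of the scalings, and the log2 fold change was -0.14 ± 0.08 (SE) (limma adjusted p = 0.999), from -0.18 to -0.10 with any 1 library left out. Its partner CHAF1B had 18.2 ± 0.40 TPM in IAA and 18.5 ± 0.20 TPM in control (SD, n = 2), with overlapping libraries. ASF1B, a chaperone that hands histones H3 and H4 to CAF-1, had 94.6 and 114 TPM in IAA and 108 and 96.9 TPM in control, where replicates differed far more than groups. CCNE2, a cyclin E gene of S phase entry, had 8.92 and 7.36 TPM in IAA and 7.25 and 6.55 TPM in control. Its log2 fold change was 0.21 ± 0.14 (SE) (limma adjusted p = 0.999), the largest positive value of the 40 with all libraries, but 0.083 without IAA replicate 1 and 0.33 without IAA replicate 2. With all libraries the lowest IAA value exceeded the highest control by a small margin. CCNE1, the other cyclin E gene, had 21.9 and 25.6 TPM in IAA and 25.4 and 25.9 TPM in control, with IAA replicate 1 alone low. CDC25A, the phosphatase that activates CDK2, had 11.5 ± 0.15 TPM in IAA and 11.3 ± 0.94 TPM in control (SD, n = 2). CLSPN, the checkpoint mediator claspin, had 17.7 and 14.0 TPM in IAA and 19.7 and 15.6 TPM in control. In both groups replicate 1 was the higher, by 0.32 on the log2(TPM + 1) scale in each, so that the groups overlapped and the interval was wide, from -0.54 to 0.25.

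Levels within complexes were unequal in both groups, and the sizes of these differences depended on the length used. The table's gene length equals the union of all annotated GENCODE 29 exons for all 40 genes, and is 1.31 times the principal (APPRIS) transcript at the median and up to 2.65 times for ORC6. On the TPM scale MCM7 was highest and MCM5 lowest of the ring, 3.8-fold apart in IAA and 3.76-fold in control. Rescaled to the principal transcript, MCM5 had 79.6 in IAA and 84.5 in control and MCM6 had 68.5 in IAA and 71.3 in control, so that MCM6 became the lowest and the range was 3.15-fold in IAA and 3.18-fold in control. Among RFC2 to RFC5 of the clamp loader, RFC4 was the lowest on the TPM scale, at 41.8 TPM in IAA and 42.2 TPM in control. When rescaled it was second highest, at 86.5 in IAA and 87.3 in control. RFC1, the large subunit, was in the separate list, at 56.7 TPM in IAA and 57.2 TPM in control, and was not rescaled. The range over RFC2 to RFC5 was 1.84-fold in IAA and 1.79-fold in control on the TPM scale. Rescaled, that range was wider, at 2.75-fold in IAA and 2.87-fold in control. POLE over POLE2 and CHAF1A over CHAF1B also widened, to 2.01-fold and 2.28-fold in IAA and 2.10-fold and 2.47-fold in control, while RRM1 over RRM2 narrowed to 1.18-fold in IAA and 1.32-fold in control. GINS3 was lowest of its complex either way. The ratio of IAA to control within a gene is the same on either length. Proteins in equal proportion in a complex need not have equal mRNA levels, and protein was not measured.

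**Figure D5:**
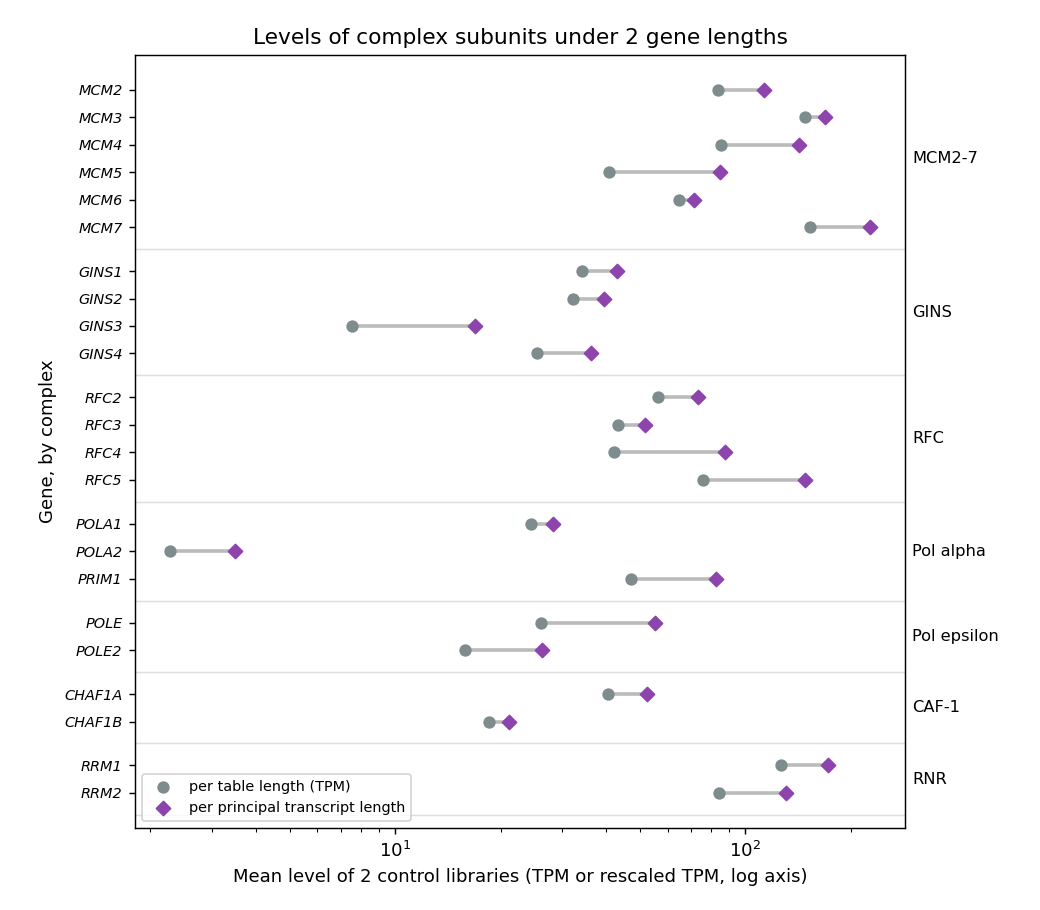
Mean level of the 2 control libraries, on a log axis, for subunits of 7 complexes, as deposited TPM (grey circles) and rescaled to the length of the principal transcript (purple diamonds). MCM5, GINS3, RFC4, RFC5 and POLE move most to the right, and POLA2 stays far below its partners.

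Other genes of replication were taken from a separate list of 50, all measured. None passed, with 0 called higher and 0 lower, a median log2 fold change of -0.017, 10 genes below both controls (20%, against 17.7% of all genes) and 4 above (8.0%, against 11.8%). UHRF1, which couples DNA methylation to replication, had 52.8 and 53.6 TPM in IAA and 67.2 and 58.8 TPM in control, a log2 fold change of -0.24 (limma adjusted p = 0.999). DTYMK, thymidylate kinase, had 59.1 and 73.9 TPM in IAA and 77.2 and 78.7 TPM in control, and passed in 1 of the fits run, without IAA replicate 2 (limma adjusted p = 0.0176, with 0.0176 to 1.0 across alternatives), the library pattern also seen for CDT1. DBF4, the activator of the CDC7 kinase that fires origins, had 40.9 and 38.7 TPM in IAA and 35.4 and 35.1 TPM in control. CCNA2, the S and G2 phase cyclin, had 171 and 156 TPM in IAA and 151 and 149 TPM in control. In DBF4 and CCNA2 both IAA libraries lay above both controls, and in UHRF1 and DTYMK below. These genes were named because they had the smallest p in each direction among the 50, a choice that favours separated libraries.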

How the data were processed

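Poly-A RNA of 4 libraries of tagged HCT116 cells was analysed, 2 from IAA-treated and 2 from untreated cells, with paired reads of 150 nt per the labels. The authors deposited a table of TPM values for 34826 genes. Per the submitters' processing notes featureCounts 1.5.2 and DESeq2 1.20.0 and the builds GRCh38.p12 and hg38 were used, in roles not stated. Neither the aligner nor the use of strand is given in the sources used here. Positions of genes are those of GENCODE 29 (GRCh38), which gave the same start for 40 and the same end for 29 of the 40 genes.

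Reads were recovered from TPM and gene length, with 100% of values whole (tolerance 1e-06). The 17896 genes that reached 1 TPM in 2 or more libraries, all 40 members among them, were fitted with limma 3.58.1 (R 4.3.3, eBayes with a trend) on log2(TPM + 1), with 2 residual degrees of freedom. Fold changes on that scale understate those of low genes. The labels call the samples biological replicates. No pair of libraries agreed within sampling noise (chi-square per gene 15.8 between the IAA libraries, 8.12 between the controls, and 5.75 between IAA replicate 2 and control replicate 2, the closest pair). Alternatives changed the pseudocount, filter, scaling, model, gene set, block and libraries, and the model code was first tested on simulated data. Within each role, the named genes are those with the smallest p in each direction and the highest mean. Other genes given by library were chosen after their values were seen. The members and lists were chosen with earlier results of these data known. Counting error covers counting alone, since PCR copies of a molecule are counted as separate reads.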

Additional observations from a re-analysis of the deposited data

How the results depend on the processing

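Each of the 40 members kept an adjusted p above 0.05 under every pseudocount, filter, scaling, gene set, voom and replicate block setting tried, and the planned edgeR and DESeq2 fits were not run because the deposited unit is TPM. Over these settings limma called 0 genes higher and 0 lower, except for 12 higher and 25 lower with protein-coding genes alone, where the prior degrees of freedom became infinite, and 1 higher by voom. Voom gave 5 members above both controls (12.5%, against 16.2% of all genes) and median centring 4 (10%, against 16.3%), in place of 3. The sign of 5 members near 0 turned to positive under other scalings: with TMM factors POLA1 was 0.0019, FEN1 0.00050 and TYMS 0.0020, with median centring POLA1 was 0.011, RFC4 0.0030, FEN1 0.0097, RRM1 0.0083 and TYMS 0.011, and by voom POLA1 was 0.015, RFC4 0.0047, FEN1 0.014, RRM1 0.012 and TYMS 0.015. Median centring shifts all genes of a library by the same amount. The library medians before it were 3.69 and 3.62 in IAA and 3.71 and 3.63 in control on the log2(TPM + 1) scale. Why the medians differed was not tested. The filter at 5 TPM left POLA2 out. With the replicate block, under which the numbers share nothing the labels state, 0 members and 0 genes passed and the member median was -0.031. The replicate 1 minus 2 differences of both groups correlated at -0.069 over 17896 genes and at 0.31 over the 40. Leaving out 1 library, with the genes tested kept, gave 0 to 534 genes called higher and 0 to 424 lower, 0 to 1 members called lower (CDT1, without IAA replicate 2) and 0 called higher, 5 to 12 members above (12.5% to 30%, against 19.1% to 38.4% of all genes) and 16 to 25 below both controls (40% to 62.5%, against 23.5% to 43.2%), and medians from -0.056 to -0.015 for members and from -0.070 to 0.025 for the other replication genes. Without IAA replicate 1 the member median was -0.030, above the -0.039 of all genes tested. Without control replicate 2 it was -0.056 for members and -0.056 for all genes. The members lay lower without IAA replicate 2, at -0.051 against 0.0091, and without control replicate 1, at -0.015 against 0.021. Of 46 named genes, 36 of 184 values obtained with 1 library left out turned their sign. Those were spread over 22 genes, and with 1 library left out their lowest and highest log2 fold changes were ORC1 -0.055 to 0.055, ORC6 -0.081 to 0.041, CDC6 -0.10 to 0.025, MCM5 -0.20 to 0.027, MCM10 -0.052 to 0.078, GINS1 -0.059 to 0.091, GINS2 -0.17 to 0.028, GINS4 -0.22 to 0.025, POLA1 -0.10 to 0.093, POLA2 -0.013 to 0.18, PRIM1 -0.052 to 0.075, RFC3 -0.035 to 0.19, RFC4 -0.036 to 0.011, RFC5 -0.013 to 0.057, FEN1 -0.082 to 0.071, RRM1 -0.080 to 0.066, TYMS -0.059 to 0.051, TK1 -0.20 to 0.071, ASF1B -0.11 to 0.16, CDC25A -0.046 to 0.11, CLSPN -0.31 to 0.015 and MKI67 -0.29 to 0.089. Depth limits POLA2 most, with a counting error of 8.30% at its lowest read number.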
